A study of Homo sapiens with 3 samples.

Results

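Genes of the long arm of chromosome 11 were compared between gemcitabine-resistant and parental clones of 5637, an established human bladder cancer line. The 545 genes were chosen by position and level in the deposited table: chromosome 11, a start of at least 55 Mb, and a mean of the 2 group means of at least 10 normalized counts. They are 545 of the 14630 genes that reach this mean in the whole table, and of 1068 genes listed from 55 Mb on. This chromosome was selected on its lowered median ratio of resistant to parental, so that ratio is given here as a description and nothing was tested on it.

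The parental group (5637P) is labelled WT and untreated. The resistant group (5637GR) is labelled gemcitabine resistant and was also untreated when its RNA was taken. The methods state that the resistant line arose by repeated, rising exposure of its parent to gemcitabine and was then kept in drug-free medium. The study describes its clones as single-cell clones derived independently of each other. Whether the resistant ones share 1 drug selection is not stated, and traits of a clone or of a derived line cannot be told apart from traits of resistance. Both groups grew in RPMI with 10% FBS, and poly-A RNA was sequenced. The authors' group means cover 3 clones per group. Counts per library were used for parental 1, resistant 1 and resistant 2, with 14475531, 15836788 and 17461941 reads on genes. With 1 parental library there is no spread for that group, and the group means carry no SD.

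A chromosome arm is not a pathway. Neighbouring genes share the copy number of their segment of DNA, and as background, where cancer cells gain or lose a segment, transcripts of the many genes inside it tend to move together by a small step. The long arm of chromosome 11 is known in bladder and other epithelial cancers for the CCND1 segment at 11q13, for the PAK1 segment at 11q13.5-q14.1 and, further out, for the matrix metalloproteinase cluster and for ATM and CHEK1. No DNA was measured here, and copy number was not tested. In bulk RNA, fewer cells with a transcript and less transcript per cell cannot be told apart.

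The markers of the line were present. All 10 urothelial and epithelial markers had more than 3 reads in every library, while none of 4 leukocyte and none of 2 endothelial markers did. Among 4 fibroblast markers, COL1A1 alone exceeded 3 reads in all libraries, and LUM had 0 reads in each. The summed TMM-scaled counts of the epithelial list were 161500, 118600 and 121000 in parental 1, resistant 1 and resistant 2. Those of the leukocyte list were 9.04, 12.6 and 2.73. Those of 3 factors secreted by this line were higher in the resistant libraries, at 349.3, 832.4 and 1392. In the group means CSF3 and CSF2 were also higher in the resistant group. IL8 was not, with 457.3 in the parental and 432.8 in the resistant group. Within the epithelial list the genes moved unevenly. KRT5 fell, with 4328, 155.6 and 218.3 scaled counts, as did KRT17, with 3119, 273.2 and 842.4. EPCAM alone was above the parental library in both resistant libraries, with 4541, 5367 and 4600. TMM scaling divides reads by an adjusted library size, so that values of 1 gene can be compared between libraries.

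Start-site sequences are shown for 2 sets of genes whose values follow. The first set is the neighbouring FEN1, FADS1 and FADS2, which were lower together. The annotated span of FADS2 overlaps FEN1 on the same strand and FADS1 on the opposite strand, so their reads may be partly shared. For each gene shown, a single annotated start was taken. It need not be the first base of the gene's span given below, and FADS2's lies inside that span. A gene can have other starts. The 100 bases before each start are given from RefSeq on GRCh38.p14, in reading direction, with each CG in capitals: FEN1 at chr11:61792811-61792910 (plus strand), FADS1 at chr11:61817004-61817103 (minus strand) and FADS2 at chr11:61816103-61816202 (plus strand).
FEN1: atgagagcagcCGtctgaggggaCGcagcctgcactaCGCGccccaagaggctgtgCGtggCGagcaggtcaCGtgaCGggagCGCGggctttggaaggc
FADS1: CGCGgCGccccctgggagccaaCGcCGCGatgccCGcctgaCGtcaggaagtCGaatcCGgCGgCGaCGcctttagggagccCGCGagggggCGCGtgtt
FADS2: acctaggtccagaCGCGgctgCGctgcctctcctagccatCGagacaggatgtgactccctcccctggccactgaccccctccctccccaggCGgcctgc
In these 100 bases CG occurred 10, 17 and 5 times. Over the 250 bases before the start it occurred 16, 29 and 16 times, against a median of 11 over all promoters in the table.

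The second set is TCN1 at chr11:59866488-59866587, BATF2 at chr11:64990278-64990377 and PDE2A at chr11:72674423-72674522, all on the minus strand, which stood above their neighbours. CG is again in capitals.
TCN1: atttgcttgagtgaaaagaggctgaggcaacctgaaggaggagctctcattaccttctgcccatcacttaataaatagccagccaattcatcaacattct
BATF2: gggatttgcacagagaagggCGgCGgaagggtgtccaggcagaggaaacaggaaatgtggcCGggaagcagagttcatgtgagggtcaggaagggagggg
PDE2A: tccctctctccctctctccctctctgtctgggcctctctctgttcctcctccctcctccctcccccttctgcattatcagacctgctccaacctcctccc
CG occurred 1, 7 and 1 times in the 250 bases of these 3 genes. Both sets were picked after their values were seen, and other genes that stood above their neighbours are not shown. Whether CG content goes with the direction of a gene was not tested. MMP10 at chr11:102780629-102780728 (minus strand) is shown because the resistant libraries differed widely in MMP10 and in its neighbour MMP1. Capitals mark a match to TGANTCA, a pattern based on the AP-1 motif in which N is any base. The pattern, though not this match, reads the same on both strands.
MMP10: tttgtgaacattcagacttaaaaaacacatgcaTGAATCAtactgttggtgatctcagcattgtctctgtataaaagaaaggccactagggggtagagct
The match began 67 bases before the start. This motif was present in the 250 bases of 6.57% of all promoters in the table. A match of letters is no evidence of binding. Entries exist for 354 of the 545 genes, and WNT11, TMPRSS4, MMP13, MMP1 and MYEOV have none.

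The arm as a whole was moderately lower in the resistant group. The median log2 ratio of the group means, after a pseudocount of 1, was -0.21 over the 545 genes, with quartiles of -0.46 and -0.01, against 0.01 over all 14630 genes. Of the 545, 412 or 75.6% had a ratio below 0, where the whole table has 48.6%. A ratio of 2-fold or more lower was found in 29 genes, or 5.32%, beside 3.15% of all genes, and 2-fold or more higher in 7, beside 3.21% of all genes. The 267 genes of chromosome 11 below 55 Mb had a median of -0.55, lower than that of the long arm.

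The labelled libraries gave medians of the same sign. The median ratio to the parental library was -0.23 in resistant 1 and -0.14 in resistant 2. Both resistant libraries were below the parental library for 266 genes, or 48.8%, against 35.8% of all genes. Both were above it for 147, or 27.0%, against 33.8% of all genes.

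The limits of the rule fall among genes of similar ratios. Just inside the mean of 10 lay AP003068.6 and CNTF, with ratios of -0.73 and -0.49. Just outside lay RP11-867G23.12 and RP11-315O6.1, with ratios of -0.52 and -0.28. The first genes inside 55 Mb were TNKS1BP1 and SSRP1, with ratios of -0.90 and -0.58. The last ones outside it, on the other side of the centromere, were NUP160 and PTPRJ, with ratios of -0.52 and -1.18.

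The lower ratios were gathered in the part of the arm nearest the centromere. Of 35 windows of 2 Mb with any of the genes, 28 held at least 5 and are described here, while 7 windows with 18 genes are not. The window median was below 0 in 25 of the 28 and at or below -0.3 in 7, all of which lay between 57 and 79 Mb. No window reached 0.3. Positions of genes and windows are on hg19, as named in the submitters' processing notes. After the window medians had been seen, the arm was divided at 63, 71 and 79 Mb into 4 stretches of 80, 176, 71 and 218 genes.

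**Figure D1:**
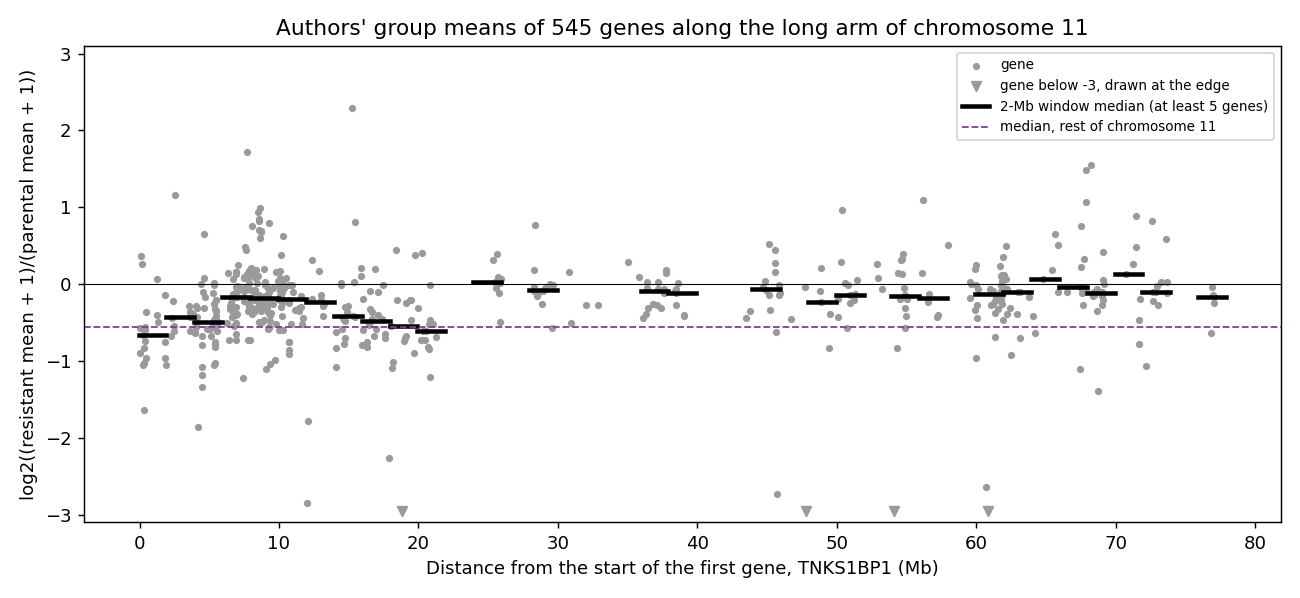
Each point is 1 gene, placed by its distance in Mb from the first gene and by its log2 ratio, resistant to parental, in the group means; black bars are medians of 2-Mb windows with at least 5 genes. The bars run from -0.66 at the left to -0.16 in the dense 11q13 stretch, return to -0.61 and lie near 0 further out, and the dashed line marks -0.55, the median of the 267 genes on the rest of the chromosome.

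In the proximal stretch, from TNKS1BP1 to SLC3A2 at 57 to 63 Mb, 73 of 80 genes were lower in the group means, with a median of -0.51. The medians of the resistant libraries over the parental one were close to it, -0.53 and -0.54. Its 24 genes with a mean of at least 1000 had a median of -0.59 and quartiles of -0.76 and -0.49, and 22 of them were below the parental library in both resistant libraries. The highest window median of the stretch, -0.43, came from the 11 genes between OSBP and VPS37C.

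The 11q13 stretch, from PLA2G16 to SHANK2 at 63 to 71 Mb, was closer to 0, with a median of -0.19 and 129 of 176 genes lower. Here the resistant libraries parted. Resistant 1 had a median of -0.46 and resistant 2 of -0.15, and resistant 1 was the lower one in all 4 windows. The median of resistant 2 over resistant 1 was 0.28 in this stretch, against 0.04 in the proximal and 0.03 in the 11q13-q14 stretch. The 82 genes with a mean of at least 1000 gave 0.27.

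In the 11q13-q14 stretch, from DHCR7 to TENM4 at 71 to 79 Mb, the lowering returned. Of 71 genes 61 were lower, with a median of -0.48, and the library medians were -0.66 and -0.63. The 4 window medians were -0.42, -0.48, -0.55 and -0.61 in the order of position. Windows of 1 Mb showed an exception inside it: the 8 genes from CLPB to RP11-800A3.4 at 72 Mb had a median of 0.07, with -0.03 in resistant 1 and 0.71 in resistant 2. The 13 genes of the window before had -0.49, and the 13 of the window after had -0.48.

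Beyond 79 Mb the group means and the libraries disagreed in sign. The 218 distal genes had a median of -0.10 in the group means, and 14 of 17 described windows were below 0. Over the parental library, resistant 1 had a distal median of 0.16 and resistant 2 of 0.06, and 15 and 13 of the 17 windows were above 0. The parental library itself lay low here. Relative to the authors' mean of its own group, and centred on all genes, its distal median was -0.22, while resistant 1 and resistant 2 lay at 0.03 and -0.03 against theirs. In the 11q13 stretch these values were 0.18 for parental 1, -0.09 for resistant 1 and 0.20 for resistant 2. In the proximal and 11q13-q14 stretches all 3 libraries lay within 0.06 of their group. The widest gap was in the window from 81 to 83 Mb, from RP11-742N3.1 to CCDC90B, with 0.03 in the group means, 0.74 in resistant 1 and 0.22 in resistant 2.

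**Figure D2:**
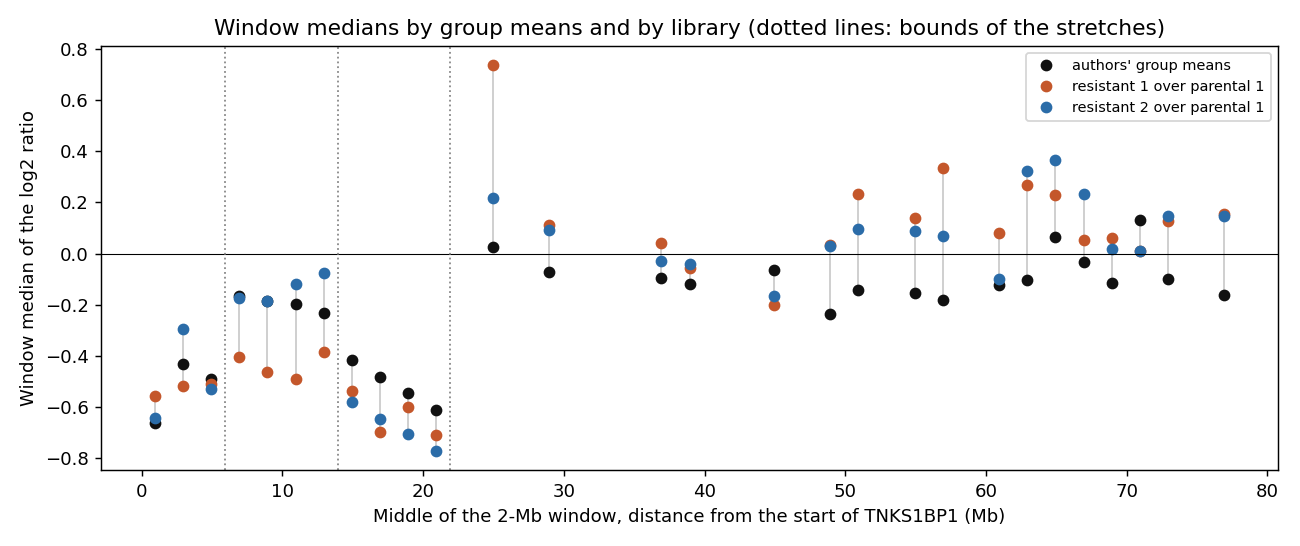
Medians of the log2 ratio in 2-Mb windows with at least 5 genes, against distance in Mb from the first gene, for the group means (black) and for resistant 1 (orange) and resistant 2 (blue) over the parental library; dotted lines bound the 4 stretches. In the first 11 windows all points lie below 0, with resistant 1 lowest in the 4 windows of the 11q13 stretch, and beyond the last dotted line the library points lie mostly above the black ones.

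In the group means, medians differed little by strand, length or type of gene. They were -0.19 and -0.22 on the plus and minus strands, -0.21 and -0.20 in the shorter and longer genes, and -0.21 in 486 protein-coding and -0.16 in 59 other genes. By expression they were -0.21, -0.19 and -0.22 in groups of 181, 182 and 182 genes of low, middle and high mean. In the libraries they did differ by expression: the mean of the resistant libraries over the parental one had medians of -0.03, -0.04 and -0.31 in these groups. Both resistant libraries were below the parental one for 44.2%, 39.6% and 62.6% of their genes. Expression went with position, with a median mean of 865.1 in the 11q13 stretch defined above and 281.1 in the distal one. Inside the 11q13 stretch, genes with a mean of at least 1000 had -0.36 and the others -0.15. Inside the distal stretch these values were 0.08 and 0.13. The part due to position was not tested.

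Single genes stood far from their surroundings. A departure was a ratio at least 1 log2 unit away from the median of the other genes within 2 Mb, in the group means and, with the same sign, in both libraries. Of 538 genes with at least 5 such neighbours, 10 departed below, beside 1.5% of all genes assessed in the same way, and 9 above, beside 1.94%. Neither count is far from these shares. By the group means alone, 30 genes departed. The other 7 genes had too few neighbours.

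WNT11 (ENSG00000085741, chromosome 11, 75897369 to 75921780), a secreted Wnt ligand, departed furthest below. It had 251 reads in the parental library and 2 and 4 in the resistant ones. Its group means were 672.8 and 2.88, a log2 ratio of -7.44, and its departure from the neighbours was -6.89. The scaled reads of both resistant libraries were 0.0099 of the parental ones, with an exact 95% interval of 0.0036 to 0.022 that covers counting error only.

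A pair of type II transmembrane serine proteases lay low side by side. TMPRSS4 (ENSG00000137648, 117947753 to 117992605) had 685, 15 and 14 reads in parental 1, resistant 1 and resistant 2, and a ratio of -4.92. TMPRSS13 (117771358 to 117800174) had 67, 4 and 1 reads and a ratio of -2.64. ST14, which encodes matriptase, a protease of the same family further along the arm, had 6478, 8233 and 9616 reads and a ratio of -0.03, so the low values were not shared by the whole family.

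MMP13 (ENSG00000137745, 102813724 to 102826463), a collagenase, had 274 reads in the parental library and 10 and 17 in the resistant ones, with a ratio of -2.74. MYEOV (ENSG00000172927, 69061605 to 69182494), which neighbours CCND1, had 552, 74 and 59 reads and a ratio of -2.85. The noncoding RP11-211G23.2 next to it had 43, 11 and 17 reads. The parental library is above both resistant ones in each of these genes, as the choice of departures requires.

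Weakly expressed genes, named after their values were seen, completed the low side. C11orf93 had 23, 0 and 1 reads, a scaled ratio of 0.018 with an exact interval of 0.00044 to 0.11. ARRB1, encoding beta-arrestin 1, had 41, 5 and 2 reads. PYGM, muscle glycogen phosphorylase, had 27, 10 and 10, and AP000662.4 had 23, 8 and 5. Their group means all lay under 60 normalized counts.

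Above its neighbours, PDE2A (ENSG00000186642, 72287185 to 72385635), a phosphodiesterase of cAMP and cGMP, departed most. It had 4 reads in the parental library, 59 in resistant 1 and 281 in resistant 2. Its group means were 19.0 and 97.1, a ratio of 2.29 in a window whose median was -0.42. SLC37A2 (ENSG00000134955, 124932963 to 124959131), a sugar-phosphate exchanger, had 588, 1636 and 3189 reads and a ratio of 1.07. The pseudogene AP001007.1 begins inside its span, at 124958377, and had 365, 998 and 2845 reads. Whether the authors' counting used the strand is not stated, and both lie on the plus strand, so these reads may be shared.

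OVOL1 (ENSG00000172818, 65554493 to 65564690), a zinc finger transcription factor of epithelia that the study follows, had 161, 319 and 397 reads. Its ratio was 0.94, and it lay 1.10 units above its neighbours. It was not the only raised gene nearby, as a few genes named after their values were seen show. CCDC85B, FOSL1, C11orf68 and DRAP1, a short way further along, had ratios of 0.84, 0.70, 1.00 and 0.61, without meeting the departure rule. CFL1 and FIBP, which lie between them and OVOL1, had -0.30 and -0.26. SLC43A3, a purine nucleobase transporter, had 781, 1213 and 1771 reads and lay 1.07 above neighbours of the proximal stretch. Among weakly expressed genes, again named after their values were seen, TCN1, a vitamin B12 binder, had 7, 48 and 108 reads. BATF2, a leucine zipper factor, had 16, 102 and 63 reads. BEST1 had 4, 15 and 23, and AQP11 had 16, 34 and 25. Both resistant libraries are above the parental one in all 9 genes that departed above, which the choice of departures largely fixes.

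**Figure D3:**
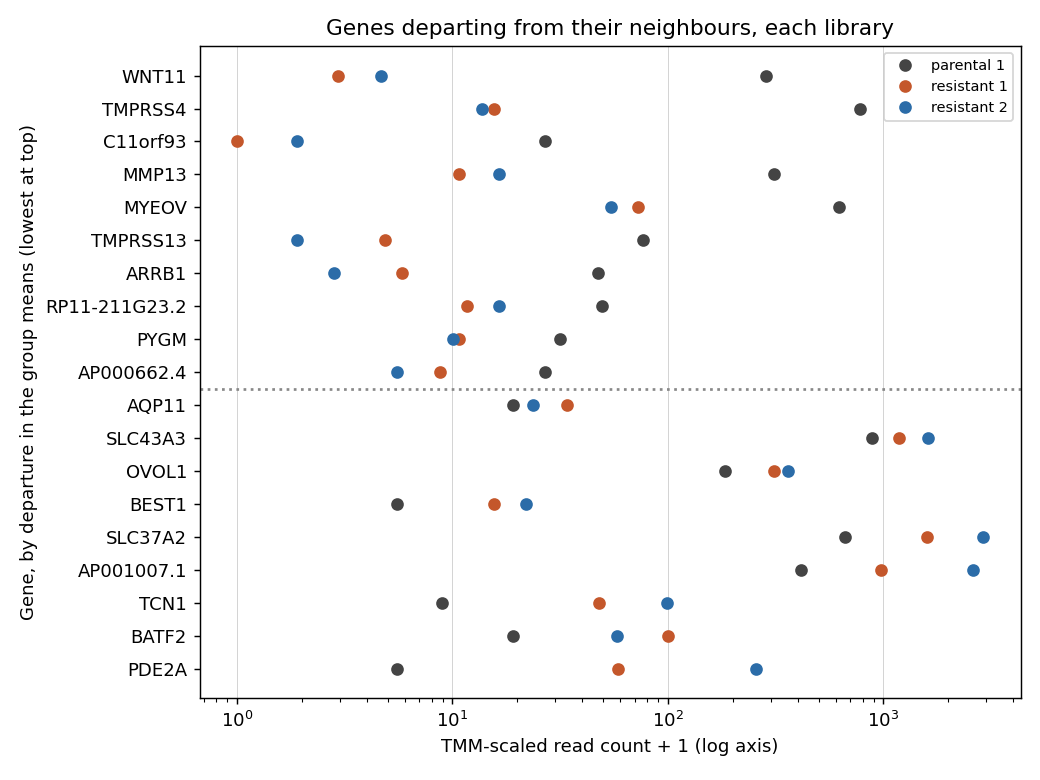
TMM-scaled reads plus 1 on a log axis in the 3 libraries for the 19 genes that departed from their neighbours, the 10 below at the top and the 9 above at the bottom. As the choice of genes requires, the parental point lies on one side of both resistant points in every row, from WNT11 with 283.7 against 1.95 and 3.64 to PDE2A with 4.52 against 57.4 and 255.6.

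Most of the most abundant transcripts of the arm, compared per length, had ratios below 0, some of them only slightly. In the authors' FPKM, which divides reads by gene length and library size, the top 3 of the parental library were GSTP1, PPP1R14B and RPS3. GSTP1, a glutathione transferase of drug detoxification, had 932.2 FPKM in the parental library and 491.1 and 426.7 in the resistant ones. RPS3, a ribosomal protein, had 767.4, 428.0 and 484.8. PPP1R14B, a phosphatase inhibitor, had 911.9, 539.6 and 691.3 FPKM but a log2 ratio of the group means of only -0.16, and HSPA8 and TRMT112, also among the top 15, had ratios of -0.10 and -0.03. DRAP1, FOSL1 and CCND1 were the 3 of the 15 with ratios above 0. FOSL1, an AP-1 subunit, had 254.1, 386.0 and 438.3 FPKM and a log2 ratio of the group means of 0.70. DRAP1, a transcriptional corepressor beside it, had 382.1, 470.5 and 636.8 FPKM and a ratio of 0.61.

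The gene lists below stand beside the arm, where 75.6% of genes were lower, and all genes, where 48.6% were. Below the parental library in both resistant libraries were 48.8% of the arm and 35.8% of all genes. The segment around CCND1 at 11q13 followed its stretch. Of 11 genes 9, or 81.8%, were lower in the group means, beside 73.3% of the stretch, with a median of -0.20. Below the parental library in both resistant libraries were 8, or 72.7%, beside 58.5% of the stretch. CCND1 itself (cyclin D1, which drives entry into S phase) was not among them. It had 17840, 22242 and 32208 reads, 20166, 21628 and 29301 after scaling, and a ratio of 0.31. MYEOV was the lowest of the segment.

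The segment from EMSY to PAK1, at 11q13.5-q14.1, held the lowest group median of all. Of 16 genes 15, or 93.8%, were lower, beside 85.9% of the stretch that contains it. The median was -0.61, against -0.48 for that stretch. Below the parental library in both resistant libraries were 12, or 75%, beside 67.6% of the stretch. RSF1, a chromatin remodelling factor and the most counted of them, had 1418, 1128 and 1039 reads and a ratio of -0.61. WNT11, described above, was the lowest of the segment, at -7.44. GAB2, a signalling adaptor, had 468, 219 and 280 reads and a ratio of -1.21. PAK1, a kinase of cell motility, had 1004, 903 and 1147 reads and a smaller ratio of -0.31. AQP11 was the exception, at 0.40.

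Genes of energy metabolism were lower in the group means in 20 of 23, or 87.0%, beside 75.6% of the arm and 48.6% of all genes. Their median was -0.16. Below the parental library in both resistant libraries were 12, or 52.2%, near the 48.8% of the arm. The lowest were the fatty acid desaturases. FADS2 (chromosome 11, 61560452 to 61634826) had 6604, 3008 and 1586 reads and a ratio of -1.34. FADS1 (61567099 to 61596790) had 3530, 2159 and 1710 reads and a ratio of -1.08. Both were below the median of their neighbours, by -0.86 and -0.60, and under the size set for a departure. FADS3, the third desaturase of the cluster, had 337, 475 and 583 reads and a ratio of -0.10. DGAT2, of triglyceride synthesis, was highest in the list at 0.45, with 145, 85 and 369 reads.

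In the group means the ketone enzyme and the carnitine transferase of the arm were lower and lay close to their neighbours. ACAT1, the mitochondrial acetoacetyl-CoA thiolase, had group means of 162.1 and 146.9 and a ratio of -0.14, but 82, 172 and 139 reads, so that the resistant libraries were above the parental one, by log2 ratios of 0.84 and 0.44. It lies in the distal stretch, where the parental library was low, and its ratio equalled that of its neighbours to within 0.01. CPT1A, which brings fatty acids into mitochondria, had 163, 165 and 168 reads and a ratio of -0.32, with a departure of -0.11 from its neighbours.

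Of 8 genes for nucleotides, glutathione and drug handling, 5 were lower, or 62.5%, beside 75.6% of the arm, with a median of -0.07. GSTP1 had the lowest ratio, -0.60, and SLC43A3 the highest, 0.37. SLC29A2, the equilibrative nucleoside transporter ENT2, had 469, 504 and 517 reads, or 530, 490 and 470 after scaling. Both resistant libraries were thus below the parental one, and the ratio was -0.22, close to the median of the arm.

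DNA damage, replication and mitosis genes were lower in the group means in 22 of 27, or 81.5%, beside 75.6% of the arm and 48.6% of all genes. Their median was -0.17, and none reached 2-fold. Below the parental library in both resistant libraries were only 11, or 40.7%, beside 48.8% of the arm and 35.8% of all genes. FEN1 (61560109 to 61564716), the flap endonuclease, was lowest, with 2483, 1766 and 1665 reads and a ratio of -0.79. SSRP1, a subunit of the FACT histone chaperone, had the most counts, 6127, 4840 and 4970 reads, and a ratio of -0.58. The checkpoint kinases of the distal stretch, named after their values were seen, were near 0. ATM had 390, 519 and 524 reads and a ratio of -0.14, and CHEK1 had 609, 827 and 650 reads and a ratio of -0.14.

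Apoptosis and Hippo genes were lower in 7 of 9, or 77.8%, near the 75.6% of the arm. Their median was -0.09, and it was -0.23 and 0.02 in resistant 1 and resistant 2. YAP1, the Hippo effector, had 5624, 4820 and 6262 reads and a ratio of -0.08. BIRC3, an inhibitor of apoptosis, was highest, with 300, 697 and 813 reads and a ratio of 0.52. CASP1, the inflammatory caspase, was lowest in the group means, 62.3 and 6.90, a ratio of -3.003. Its reads were only 20, 15 and 6, and the parental library lay well below the parental mean.

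In the metalloproteinase cluster 3 of 6 genes were lower, with a median of -0.09, and the libraries parted, with medians of -0.88 in resistant 1 and 0.26 in resistant 2. MMP1, interstitial collagenase, had 159 reads in the parental library, 430 in resistant 1 and 4100 in resistant 2. Its group means were 939.0 and 1274, a ratio of only 0.44. MMP10, stromelysin 2, whose start sequence was shown above, had 874, 474 and 2521 reads, so resistant 1 was below and resistant 2 above the parental library. MMP12, macrophage elastase, had 37, 20 and 21 reads, and MMP13 was low in both resistant libraries. TMEM123, a membrane protein gene beside the cluster, had 7517, 5374 and 5739 reads.

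Epithelial and adhesion genes were lower in 17 of 21, or 81.0%, beside 75.6% of the arm and 48.6% of all genes, with a median of -0.29. Of the 21, 4 were 2-fold or more lower, or 19.05%, beside 5.32% of the arm and 3.15% of all genes. The library medians were closer to 0, at -0.06 in resistant 1 and -0.13 in resistant 2, with 10 genes below and 7 above the parental library in both. CTTN, the actin-binding cortactin, was the most counted, with 9179, 6668 and 11123 reads and a ratio of -0.29. TMPRSS4 was lowest and OVOL1 highest. THY1, a surface glycoprotein, had 0 reads in the parental library and 9 and 27 in the resistant ones, while its group means were 20.8 in the parental and 15.7 in the resistant group, the opposite order.

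Of 29 transcription and chromatin regulators 21 were lower, or 72.4%, near the 75.6% of the arm, with a median of -0.12. SF1, a splicing factor, was the most counted, with 8720, 8507 and 8975 reads, or 9857, 8272 and 8165 after scaling. Its ratio was -0.07. ZBTB3 was lowest at -0.76 and BATF2 highest at 1.72. FLI1 and ETS1, adjacent ETS factors named after their values were seen, had ratios of 0.48 and 0.26. FLI1 had 60, 200 and 391 reads, and ETS1 had 1172, 1370 and 2561.

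Ribosome and translation genes had the narrowest range of ratios of the 12 lists. Of 14 genes 13 were lower, or 92.9%, beside 75.6% of the arm. The median was -0.24, with ratios from -0.55 (MRPL16) to 0.02 (RPS6KB2). Below the parental library in both resistant libraries were 10, or 71.4%, beside 48.8% of the arm and 35.8% of all genes. HSPA8, a chaperone with the most counts, was at -0.10. In the noncoding list 2 of 4 genes were lower, with a median of -0.11. NEAT1 had 4689, 5835 and 5564 reads, or 5300, 5674 and 5062 after scaling, and a ratio of 0.14. After scaling, only resistant 1 was above the parental library. SNHG1 was lowest at -0.61. Of 11 inflammation genes 8, or 72.7%, were lower in the group means, near the 75.6% of the arm, with a median of -0.39. The libraries gave medians of -0.05 in resistant 1 and 0.07 in resistant 2, with 5 genes below and 5 above the parental library in both. TRIM29 had a ratio of -0.39, but 1662, 2364 and 2769 reads, in the order opposite to the group means. Over all lists 132 of 166 genes were lower, or 79.5%, beside 75.6% of the arm. Their median was -0.22, next to -0.21 for the whole arm, so no difference between the listed genes and the arm is claimed.

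**Figure D4:**
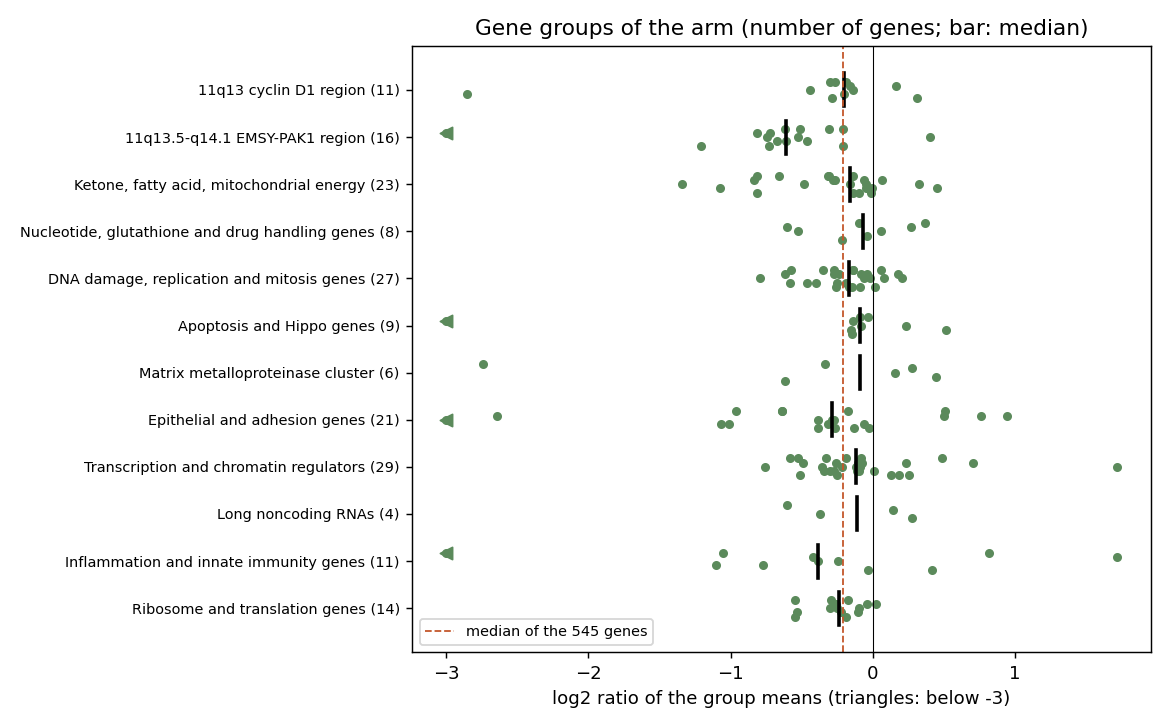
Log2 ratios of the group means for the genes of 12 lists, 1 point a gene, with a bar at each median and a dashed line at -0.21, the median of the 545 genes; triangles are genes below -3. The segment from EMSY to PAK1 has its median furthest to the left, at -0.61, and the others lie between -0.39 and -0.07.

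The rule did not use the difference between the resistant clones. Resistant 2 was at least 2-fold above resistant 1 for 33 of the 545 genes, beside 6.36% of all genes, and at least 2-fold below it for 10, beside 3.51% of all genes. Neither count is a higher share of the 545 genes. MMP1 differed most, by 3.15 log2 units, where the mean was 50 or more. SLC43A1, an amino acid transporter, had 50 and 53 reads in parental 1 and resistant 1 and 360 in resistant 2, a difference of 2.64. FEZ1, of axonal transport, had 155, 369 and 1381 reads, higher in both resistant libraries.

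TENM4, GDPD5 and DGAT2, all in the 11q13-q14 stretch, had their lowest reads in resistant 1. TENM4, a teneurin and the last gene of the stretch, had 493, 149 and 664 reads, a difference of 2.05. GDPD5 had 68, 17 and 76 reads, and DGAT2 had 145, 85 and 369. In the other direction SYT12, a synaptotagmin, had 592 reads in the parental library, 194 in resistant 1 and 48 in resistant 2, a difference of -2.09. CST6, a cystatin protease inhibitor, had 250, 702 and 224 reads, with resistant 1 alone above the parental library. These genes were taken for their difference, and 1 library against 1 has no replicate.

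**Figure D5:**
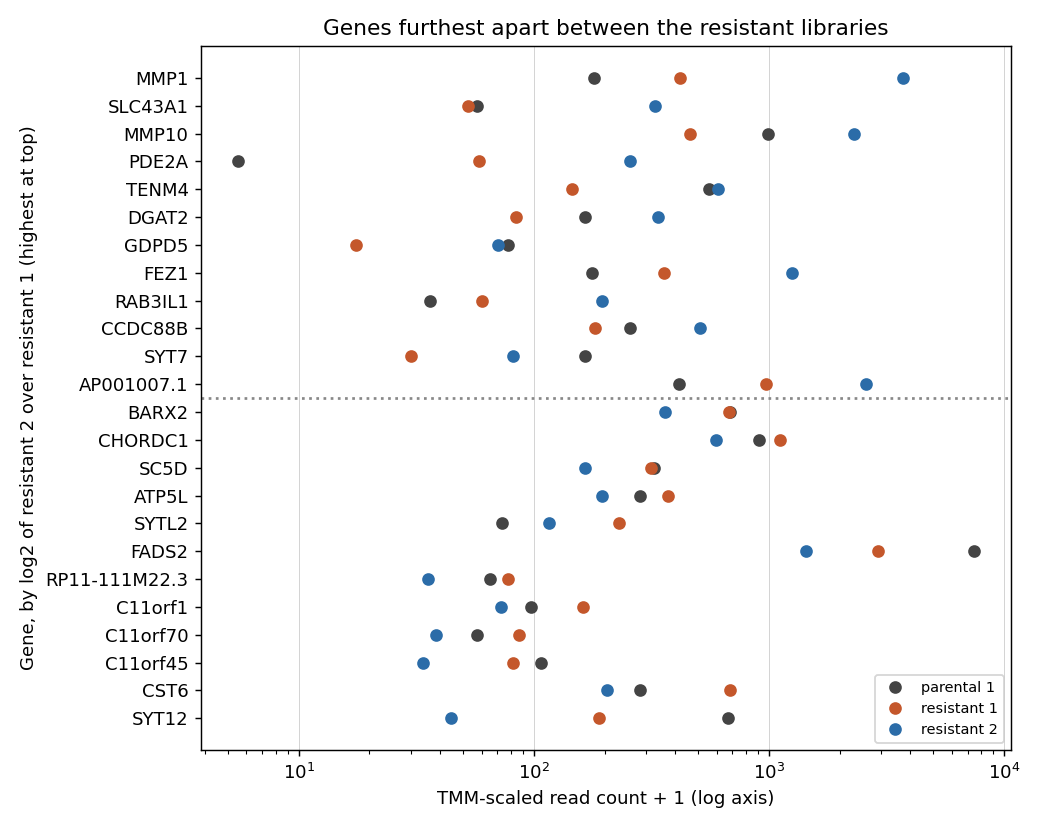
TMM-scaled reads plus 1 on a log axis in the 3 libraries for the 12 genes with the highest and the 12 with the lowest log2 of resistant 2 over resistant 1, where the mean was 50 or more. MMP1 is at the top, with 179.7, 418.1 and 3730, and SYT12 at the bottom, with 669.2, 188.6 and 43.7.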

How the data were processed

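RNA of single-cell clones of 5637 was sequenced by Novogene, from parental and gemcitabine-resistant cells. The authors deposited raw read counts per gene and library, FPKM per library, and for each group a signal, the mean of DESeq2-normalized counts. The submitters' processing notes name hg19 and CASAVA 1.8. The aligner, the counting tool and strand handling are not given in the sources used here. The authors' deposited log2 fold changes and p-values, for resistant against parental, were not used, nor were 6 columns of libraries without a label here.

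Counts of the 3 labelled libraries were scaled by TMM (edgeR 4.0.16, R 4.3.3), with 1 read worth 1.13, 0.972 and 0.910 scaled counts. Reads printed for a gene are unscaled unless said otherwise. Ratios are log2 with a pseudocount of 1. A count of 3 was the floor, 0.214, 0.184 and 0.172 CPM in these libraries, and intervals are exact Clopper-Pearson. Intervals and floors cover counting error only, since no molecular identifiers were counted. No test was run: the genes were chosen on this contrast, and 1 parental library gives no spread. The members and lists were chosen with earlier results of these data known, and the bounds of the stretches after the window medians. Named were departures with a mean of at least 50, in each list the most counted, highest and lowest gene and the study's own genes, the ends of stretches and the genes beside the limits. Other names are said to be chosen after their values were seen, as are the genes furthest apart between the resistant libraries, the most abundant by FPKM, and MMP10, MMP12, FADS1, FADS3, GAB2, PAK1, TMPRSS13, ST14, DRAP1, FOSL1, THY1, NEAT1 and RP11-211G23.2. Alternatives covered scaling, pseudocount, filter, window width, bounds and libraries. The steps were tested on simulated data, with changes planted only in genes with a mean of at least 50. Recovery of changes in weaker genes was not checked. Calculations used Python 3.11.15, numpy 2.4.6, pandas 2.3.3, scipy 1.17.1 and matplotlib 3.10.9. One gene of the noncoding list is not reported here.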

Additional observations from a re-analysis of the deposited data

How the results depend on the processing

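The median of the 545 genes, -0.21, kept its sign under every alternative tried. It was -0.14 with no filter on the mean, -0.14 from the mean of the resistant libraries over the parental library, and between -0.23 and -0.14 when either resistant library was left out. With total-count scaling the median of resistant 1 was -0.14, and the difference between the resistant clones changed sign, to -0.0061 from 0.04. The distal stretch also changed sign, from -0.10 in the group means to 0.12 in the libraries. Group means and libraries differ in the clones of both groups and in scaling, which cannot be told apart here. The proximal stretch moved from -0.51 to -0.56 in the libraries, -0.52 with a mean of at least 50, -0.52 when centred on all genes, and -0.49 both without members past 2-fold and with bounds 1 Mb later. The 11q13-q14 stretch was -0.59 in the libraries, and the 11q13 stretch went from -0.19 to -0.28 there, over 1.5 times, with resistant 1 and resistant 2 at -0.46 and -0.15. Genes departing below and above numbered 21 and 34 with a departure of 0.58, and 4 and 4 with a mean of at least 50. By the group means alone, 15 departed above. Without 1 of the resistant libraries, 12 departed below in either case. Above, 9 departed without resistant 2 and 15 without resistant 1, a change of over 1.5 times. The cause of these changes was not tested.

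Of 38 alternative values of the 19 departing genes, 22 moved by less than the spread of the resistant libraries, 16 moved by more, and 0 changed sign. The signs were largely fixed in advance. The choice of these genes required both resistant libraries to depart the same way, and another pseudocount cannot turn a sign. Bounds and alternatives for the stretches were set after seeing the data. No paired analysis was possible because the groups share only replicate number 1. What limits these values is the single labelled parental library, group means without an SD, and, for genes under 10 reads in a library, counting error.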

Other observations

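Some genes of the arm were read in the labelled parental library at levels far from the authors' parental mean. Over all genes this library lay 0.13 log2 units above that mean. MMP1 had 179.7 scaled reads in it, against a parental mean of 939.0. CASP1 had 22.6 against 62.3, and WNT11 283.7 against 672.8. THY1 had 0 reads against a mean of 20.8. These genes were picked after their values were seen, and the spread among parental clones could not be measured here.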
